A study of Mus musculus with 8 samples.

Results

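The genes for 10 chemokine receptors were followed in mouse regulatory T (Treg) cells carrying a control guide RNA or a guide RNA against Foxp3, without and after stimulation of the T cell receptor (TCR). The members were the rows whose gene symbol was Ccr2, Ccr4, Ccr6, Ccr7, Ccr8, Ccr9, Cxcr3, Cxcr4, Cxcr5 or Cx3cr1, 10 of the 55665 genes in the deposited tables, and all 10 were among the 16642 genes that passed the filter on low counts. The cells of every library were natural Treg (nTreg) cells, isolated as CD4+GFP+ cells from spleen and lymph nodes by cell sorting and then cultured. All came from mice that express Cas9 (RosaCas9/+) and report Foxp3 by GFP (Foxp3gfp), so the control cells carry Cas9 and the reporter too. The 4 groups of 2 libraries were cells with the guide labelled sgNC given mock treatment with DPBS (control guide, 0 h), cells with sgNC restimulated with antibodies to CD3 and CD28 (control guide, 3 h), and cells with the guide labelled sgFoxp3 under the same treatments (Foxp3 guide, 0 h and 3 h). Each library is a bulk culture in which cells with and without an edited Foxp3 gene cannot be separated, and neither animal ages nor pooling of animals is given in the sources used here. The comparisons address how loss of Foxp3 alters transcript levels with and without TCR stimulation.

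Chemokine receptors are G protein-coupled receptors that couple to inhibitory G proteins and steer cells along gradients of chemokines, small secreted proteins that are displayed on tissue surfaces. A T cell's receptor set decides which compartments it can enter: CCR7 and CXCR4 serve lymph nodes and bone marrow, CXCR5 the B cell follicle, CCR9 the small intestine, CCR4 and CCR8 skin and other barrier tissues, and CXCR3, CCR2 and CX3CR1 inflamed tissue. Treg cells use the same receptors as the effector cells they restrain, and ligand binding leads to signalling, desensitisation by kinases and arrestins, and migration.

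The libraries held between 38729009 and 94807362 expected counts, and each Foxp3-guide library was deeper than each control-guide library. Foxp3 itself, the targeted gene, was at 769.9 ± 8.51 CPM (counts scaled to library size, mean ± SD, n = 2) with the control guide and 88.0 ± 0.621 CPM with the Foxp3 guide at 0 h, and at 676.1 ± 3.82 and 73.9 ± 3.05 CPM at 3 h. All 10 Treg and T cell identity genes examined were at or above 0.5 TPM (a scale of relative transcript abundance that corrects for transcript length) in each group. With the Foxp3 guide 5 of them were lower and 4 higher at 0 h (beside 29.1% and 34.2% of all genes tested). At 3 h 6 were lower and 3 higher (beside 30.8% and 30.7%). At 0 h Il2ra was at 599.4 TPM with the control guide and 101.3 TPM with the Foxp3 guide, Ctla4 at 603.0 and 350.9, Tnfrsf18 at 744.3 and 352.0, and Ikzf2 at 151.8 and 71.5. In CPM Cd4 was at 387.6 and 461.6, Cd3d at 268.4 and 368.5, Trac at 219.1 and 303.3, and Lck at 454.6 and 517.2. In TPM Cd4 (252.1 and 245.0) and Lck (608.5 and 564.8) were not higher. At 3 h Ikzf2 was at 442.6 ± 27.2 CPM with the control guide and 472.7 ± 7.39 CPM with the Foxp3 guide. Nothing in the labels says that the libraries of a group came from separate animals or cultures, so the spread behind each p-value is that of these libraries and may be only technical. In bulk RNA a smaller share of cells with a transcript and less of it per cell cannot be told apart.

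On the TPM scale, which permits comparison between genes, Ccr7 (254.5 ± 9.11 TPM) and Cxcr4 (231.3 ± 2.93 TPM) were the most abundant of the 10 in control-guide cells at 0 h. The other 8 ran from Ccr4 (40.1 ± 1.66 TPM) down to Ccr9 (1.16 ± 0.346 TPM). Ccr4 was not separated from Ccr2 (39.8 ± 0.672 TPM) in these libraries, nor Ccr8 (26.3 ± 0.0212 TPM) from Ccr6 (25.9 ± 0.714 TPM), nor Ccr6 from Cxcr3 (25.3 ± 1.79 TPM). After 3 h of stimulation Ccr8 led the order with 312.3 ± 5.19 TPM, followed by Ccr7 with 61.4 ± 0.615 TPM. With the Foxp3 guide at 0 h the order began with Ccr7 (201.1 ± 0.856 TPM), Cxcr4 (178.0 ± 1.25 TPM) and Ccr2 (110.6 ± 2.62 TPM), and no neighbours in the order overlapped. With the Foxp3 guide at 3 h it began with Ccr8 (195.5 ± 0.0636 TPM), Ccr4 (53.8 ± 1.02 TPM) and Cxcr3 (45.5 ± 0.658 TPM).

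**Figure D1:**
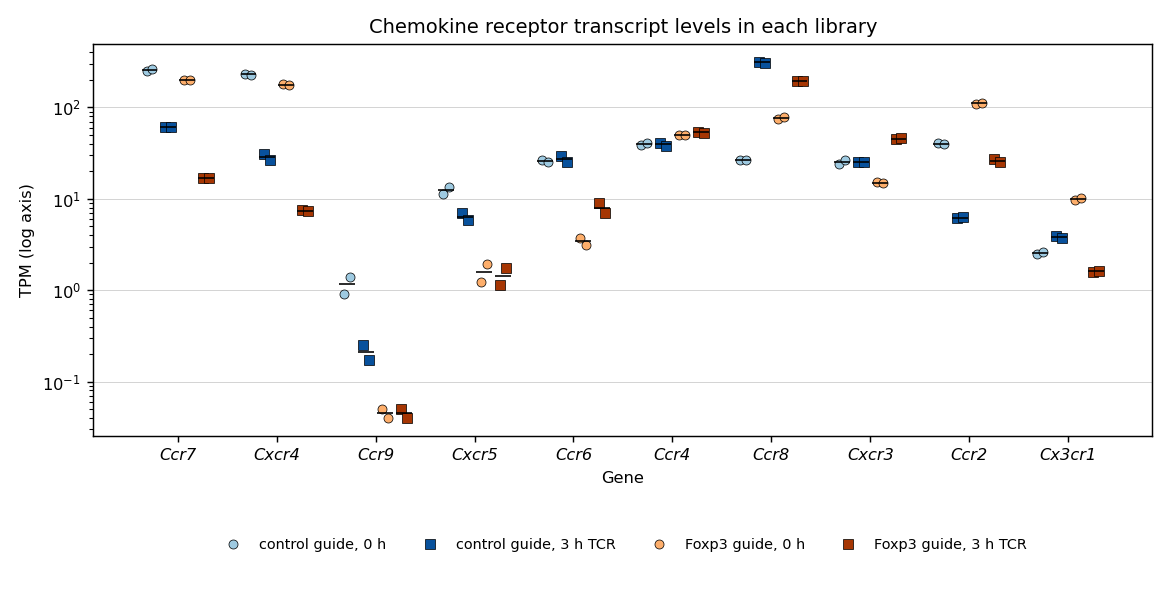
TPM of the 10 receptor genes in each of the 8 libraries, on a log axis, with circles for 0 h, squares for 3 h, blue for the control guide, orange and brown for the Foxp3 guide, and a black bar at the mean of the 2 libraries. Ccr8 rises from 26.3 to 312.3 TPM with the control guide while Cxcr4 falls from 231.3 to 28.7 TPM.

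The make-up of the receptor transcripts shifted with stimulation under either guide. Ccr7 and Cxcr4 together made up 73.7% ± 0.203 (SD, n = 2) of the summed TPM of the 10 genes in control-guide cells at 0 h and 17.6% ± 0.0638 at 3 h. The same pair of genes made up 58.6% ± 0.563 under the Foxp3 guide at 0 h and 6.87% ± 0.00659 at 3 h. Ccr8 alone went from 3.99% ± 0.0586 to 61.1% ± 0.557 with the control guide, and from 11.8% ± 0.254 to 54.8% ± 0.399 with the Foxp3 guide. The summed TPM itself was 659.4 ± 10.2 and 646.5 ± 2.62 at 0 h, with the control and the Foxp3 guide, and 511.2 ± 13.2 and 356.6 ± 2.71 at 3 h.

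**Figure D2:**
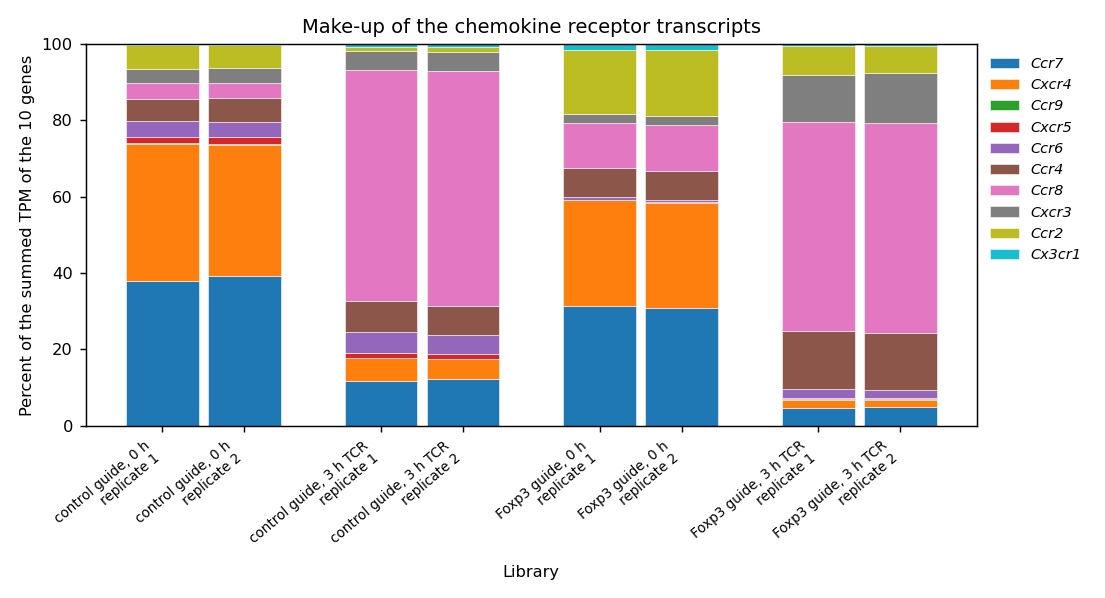
Stacked bars of each gene's percent of the summed TPM of the 10 receptor genes, 1 bar per library, from 0 to 100%. Ccr7 and Cxcr4 fill 73.7% of the bars of the control guide at 0 h on average, and Ccr8 fills 61.1% at 3 h.

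CCR7, the receptor for CCL19 and CCL21, brings T cells into lymph nodes. Its gene (ENSMUSG00000037944.8, protein coding, minus strand, GRCm38 chr11:99144196-99155077) was at 250.4 and 261.9 CPM in the control-guide libraries at 0 h and at 78.4 and 81.3 CPM at 3 h. Ccr7 under the Foxp3 guide was at 245.5 and 243.2 CPM at 0 h and at 25.1 and 26.0 CPM at 3 h. The groups did not overlap, but at 0 h the guides lay close together, whereas at 3 h both Foxp3-guide libraries were far below both control-guide libraries. At 0 h the log2 change of Ccr7 between the guides was -0.07 ± 0.04 (SE), with a 95% interval from -0.14 to 0.01 and an adjusted p of 0.113. That call depended on scaling: Ccr7 was lower with the Foxp3 guide at 0 h under median-ratio scaling (-0.13, adjusted p = 0.00517) and on the TPM scale (-0.34, adjusted p = 0.000124). At 3 h it was 3.11-fold lower with the Foxp3 guide (log2 change -1.64 ± 0.04, adjusted p = 5.86e-20).

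Stimulation lowered Ccr7 3.21-fold with the control guide (log2 change -1.68 ± 0.04, adjusted p = 3.2e-22) and 9.53-fold with the Foxp3 guide (log2 change -3.25 ± 0.04, adjusted p = 1.89e-27). The difference between these TCR responses was itself called, at -1.57 ± 0.06 on the log2 scale (adjusted p = 2.09e-16).

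CXCR4, the receptor for CXCL12, retains leukocytes in bone marrow and positions them in lymphoid tissue. Its gene (ENSMUSG00000045382.6, protein coding, minus strand, chr1:128588199-128592293) was at 170.8 and 169.0 CPM with the control guide at 0 h and at 29.1 and 25.3 CPM at 3 h. Cxcr4 under the Foxp3 guide was at 160.6 and 161.1 CPM at 0 h and at 8.27 and 8.06 CPM at 3 h. As for Ccr7, the guides lay close together at 0 h and well apart at 3 h, and no groups overlapped. The log2 change between the guides at 0 h was -0.08 ± 0.04 (95% interval -0.16 to 0.01, adjusted p = 0.102), and it was called lower under median-ratio scaling (-0.14, adjusted p = 0.00704) and on the TPM scale (-0.38, adjusted p = 0.00158). At 3 h Cxcr4 was 3.34-fold lower with the Foxp3 guide (log2 change -1.74 ± 0.06, adjusted p = 1.66e-17).

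The fall of Cxcr4 with stimulation was 6.24-fold with the control guide (log2 change -2.64 ± 0.05, adjusted p = 3.41e-24) and 19.7-fold with the Foxp3 guide (log2 change -4.30 ± 0.05, adjusted p = 1.29e-27). The TCR responses differed by -1.66 ± 0.07 (adjusted p = 8.02e-15). Cxcr4 had the most negative TCR response of the 10 under each guide.

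CCR9, the receptor for CCL25, marks cells bound for the small intestine. Its gene (ENSMUSG00000029530.16, protein coding, plus strand, chr9:123678439-123784330) was the lowest of the 10 in TPM in every group, with 1.43 and 2.28 CPM in the control-guide libraries at 0 h and 0.533 and 0.401 CPM at 3 h. Ccr9 under the Foxp3 guide was at 0.112 and 0.0727 CPM at 0 h and at 0.122 and 0.0851 CPM at 3 h, on 13 summed counts in each group. Both control-guide groups lay above both Foxp3-guide groups, and the 0 h and 3 h libraries of the Foxp3 guide overlapped. Ccr9 was 19.7-fold lower with the Foxp3 guide at 0 h (log2 change -4.30 ± 0.35, adjusted p = 1.04e-10) and 4.63-fold lower at 3 h (log2 change -2.21 ± 0.46, adjusted p = 0.000191). The 3 h difference was not called on the TPM scale with a pseudocount of 1 (-0.21, adjusted p = 0.107), a pseudocount larger than all of the 3 h values of Ccr9.

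With the control guide stimulation lowered Ccr9 3.97-fold (log2 change -1.99 ± 0.29, adjusted p = 8.3e-07). With the Foxp3 guide the change was 0.10 ± 0.59 (95% interval -1.13 to 1.32, adjusted p = 0.88), on 13 counts at each time. The responses differed by 2.09 ± 0.69 (adjusted p = 0.0156), but without the second control-guide library at 0 h the adjusted p was 0.0532, without the second Foxp3-guide library at 0 h 0.0593, and without the first Foxp3-guide library at 3 h 0.0779. The annotated exons of Ccr9 overlap those of Slc6a20a on the opposite strand and of Gm17200 on the same strand, which had 3 and 0 summed counts at 0 h with the Foxp3 guide and 0 in the other groups. They also overlap those of AC165425.1 on the opposite strand, for which no values were analysed here.

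CXCR5, the receptor for CXCL13, takes follicular helper and follicular regulatory T cells into B cell follicles. Its gene (ENSMUSG00000047880.15, protein coding, minus strand, chr9:44511787-44561877) was at 10.4 and 10.7 CPM with the control guide at 0 h and at 7.66 and 7.29 CPM at 3 h. Cxcr5 under the Foxp3 guide was at 1.48 and 1.40 CPM at 0 h and at 1.35 and 1.46 CPM at 3 h. The guides separated fully at either time, and time separated the libraries of the control guide but not those of the Foxp3 guide. Cxcr5 was 7.31-fold lower with the Foxp3 guide at 0 h (log2 change -2.87 ± 0.11, adjusted p = 2.64e-17) and 5.28-fold lower at 3 h (log2 change -2.40 ± 0.11, adjusted p = 4.25e-15).

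Stimulation lowered Cxcr5 1.41-fold with the control guide (log2 change -0.50 ± 0.09, adjusted p = 2.31e-05), and the change with the Foxp3 guide was -0.03 ± 0.14 (95% interval -0.32 to 0.26, adjusted p = 0.88). The fall with the control guide was -0.95 as a log2 ratio of mean TPM. The responses differed by 0.47 ± 0.17 (adjusted p = 0.0248). That difference was lost with DESeq2 (adjusted p = 0.0788), without the filter on counts (adjusted p = 0.0631), in log2(TPM + 0.1) and in unfiltered log2(TPM + 1) (adjusted p = 0.1 in each), and when any of 4 libraries was left out, namely the second replicate of each group (adjusted p = 0.0636 to 0.0985). Exons of Cxcr5 overlap those of Bcl9l on the opposite strand, which fell from 278.3 ± 3.30 to 22.9 ± 0.706 CPM with stimulation under the control guide. The library protocol keeps strand and the deposited counts are labelled stranded, but the strand setting used in the counting is not given in the sources used here.

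CCR6, the receptor for CCL20, is typical of cells of mucosal and interleukin-17-associated programmes. Its gene (ENSMUSG00000040899.14, protein coding, plus strand, chr17:8236043-8257141) was at 12.9 and 12.1 CPM with the control guide at 0 h and at 18.0 and 16.3 CPM at 3 h. Ccr6 under the Foxp3 guide was at 2.002 and 1.659 CPM at 0 h and at 5.41 and 4.61 CPM at 3 h. All 4 Foxp3-guide libraries were below all 4 control-guide libraries, and under each guide the 3 h libraries were above those at 0 h. Ccr6 was 6.80-fold lower with the Foxp3 guide at 0 h (log2 change -2.77 ± 0.11, adjusted p = 7.4e-17) and 3.46-fold lower at 3 h (log2 change -1.79 ± 0.09, adjusted p = 1.79e-14).

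Ccr6 rose 2.698-fold with stimulation under the Foxp3 guide (log2 change 1.43 ± 0.12, adjusted p = 4.13e-11). With the control guide it was 1.37-fold higher (log2 change 0.46 ± 0.08, adjusted p = 2.72e-05), but on the TPM scale the groups overlapped and the change was 0.08 (adjusted p = 0.578). The responses differed by 0.97 ± 0.15 (adjusted p = 6.45e-06).

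Because Ccr6 and Cxcr5 are also B cell genes, B cell markers were examined beside them. Of 8 such markers 5 were tested, and at 0 h 3 were lower and 1 higher with the Foxp3 guide (beside 29.1% and 34.2% of all genes). Their summed level was 1172.9 to 1178.5 TPM with the control guide and 268.6 to 273.0 TPM with the Foxp3 guide at 0 h, and 89.9 to 90.9 and 26.4 to 26.5 TPM at 3 h. Nearly all of this was Ighm, the immunoglobulin mu heavy chain (1153.0 ± 6.51 TPM with the control guide at 0 h). Ighm, Ighd and Ebf1 were lower with the Foxp3 guide at 0 h, as Ccr6 and Cxcr5 were, and Cd79b was higher (0.65, adjusted p = 0.000483). The 6 markers other than Ighm and Ighd summed to 5.78 to 5.89 TPM with the control guide and 5.76 to 6.46 TPM with the Foxp3 guide at 0 h, of which Cd79b made up 3.99 ± 0.205 and 5.33 ± 0.530 TPM. Ms4a1 and Pax5 summed to at most 0.11 TPM in any library. The part of B cell transcripts in the values of Ccr6 and Cxcr5 was not tested.

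CCR4, the receptor for CCL17 and CCL22, is a skin-homing receptor that many Treg cells carry. Its gene (ENSMUSG00000047898.7, protein coding, minus strand, chr9:114490316-114504916) was at 57.2 and 60.3 CPM with the control guide at 0 h and at 76.5 and 72.6 CPM at 3 h. Ccr4 under the Foxp3 guide was at 88.0 and 88.5 CPM at 0 h and at 117.0 and 118.0 CPM at 3 h. The libraries stepped up from group to group in that order with no overlap. Ccr4 was 1.502-fold higher with the Foxp3 guide at 0 h (log2 change 0.59 ± 0.04, adjusted p = 5.9e-12) and 1.57-fold higher at 3 h (log2 change 0.66 ± 0.04, adjusted p = 5.73e-13). As a log2 ratio of mean TPM the difference at 0 h was smaller, 0.32.

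The TCR response of Ccr4 was small under either guide and depended on the scale. In the count model it was 0.34 ± 0.04 with the control guide (adjusted p = 6.18e-08) and 0.41 ± 0.04 with the Foxp3 guide (adjusted p = 4.67e-10). On the TPM scale it was -0.03 (adjusted p = 0.664) and 0.10 (adjusted p = 0.132). Ccr4 was the member whose TCR responses were not called different between the guides, with a difference of 0.07 ± 0.06, a 95% interval from -0.05 to 0.19 and an adjusted p of 0.353.

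CCR8, the receptor for CCL1, is a mark of highly activated Treg cells in barrier tissues and tumours. Its gene (ENSMUSG00000042262.5, protein coding, plus strand, chr9:120092114-120094906) was at 14.5 CPM in each of the control-guide libraries at 0 h and at 223.5 and 223.7 CPM at 3 h. Ccr8 under the Foxp3 guide was at 50.4 and 52.0 CPM at 0 h and at 158.2 and 163.6 CPM at 3 h. The Foxp3-guide libraries thus lay between the control-guide groups, above them at 0 h and below them at 3 h. Ccr8 was 3.53-fold higher with the Foxp3 guide at 0 h (log2 change 1.82 ± 0.05, adjusted p = 1.94e-20) and 1.39-fold lower at 3 h (log2 change -0.47 ± 0.04, adjusted p = 3.14e-11).

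Stimulation raised Ccr8 15.4-fold with the control guide (log2 change 3.94 ± 0.05, adjusted p = 4.39e-28), the most positive TCR response of the 10 under that guide. With the Foxp3 guide the rise was 3.14-fold (log2 change 1.65 ± 0.04, adjusted p = 1.26e-22). The responses differed by -2.29 ± 0.06 (adjusted p = 7.39e-19).

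CXCR3, the receptor for CXCL9 and CXCL10, is the receptor of type 1 inflammation and a target of the factor T-bet. Its gene (ENSMUSG00000050232.6, protein coding, minus strand, chrX:101731535-101734269) was at 20.9 and 23.0 CPM with the control guide at 0 h and at 27.8 and 29.0 CPM at 3 h. Cxcr3 under the Foxp3 guide was at 16.1 and 15.4 CPM at 0 h and at 57.1 and 60.4 CPM at 3 h. The Foxp3-guide libraries were the lowest at 0 h and the highest at 3 h. Cxcr3 was 1.40-fold lower with the Foxp3 guide at 0 h (log2 change -0.48 ± 0.06, adjusted p = 1.4e-07) and 2.07-fold higher at 3 h (log2 change 1.05 ± 0.05, adjusted p = 1.15e-14). As a log2 ratio of mean TPM the difference at 0 h was -0.75.

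Cxcr3 rose 3.73-fold with stimulation under the Foxp3 guide (log2 change 1.90 ± 0.05, adjusted p = 9.43e-21), the most positive response of the 10 under that guide. With the control guide it was 1.29-fold higher in the count model (log2 change 0.37 ± 0.06, adjusted p = 3.24e-06), but in TPM the groups overlapped and the change was 0.0016 (adjusted p = 0.982). The responses differed by 1.53 ± 0.08 (adjusted p = 8.83e-14).

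CCR2, the receptor for CCL2 and CCL7, draws monocytes and activated T cells to inflamed tissue. Its gene (ENSMUSG00000049103.14, protein coding, plus strand, chr9:124101950-124113557) was at 72.5 and 68.4 CPM with the control guide at 0 h and at 14.05 and 15.01 CPM at 3 h. Ccr2 under the Foxp3 guide was at 232.7 and 242.0 CPM at 0 h and at 71.8 and 71.0 CPM at 3 h. In CPM the Foxp3-guide libraries at 3 h overlapped the control-guide libraries at 0 h, and all other groups were apart. In TPM the overlapping groups were apart as well, at 27.1 and 25.4 TPM against 40.3 and 39.4 TPM. Ccr2 was 3.37-fold higher with the Foxp3 guide at 0 h (log2 change 1.75 ± 0.04, adjusted p = 2.13e-21) and 4.91-fold higher at 3 h (log2 change 2.30 ± 0.05, adjusted p = 1.73e-21).

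Ccr2 fell with stimulation, 4.85-fold with the control guide (log2 change -2.28 ± 0.05, adjusted p = 1.31e-22) and 3.33-fold with the Foxp3 guide (log2 change -1.73 ± 0.04, adjusted p = 1.37e-22). The responses differed by 0.54 ± 0.07 (adjusted p = 2.53e-07). Expected counts of Ccr2 were not all whole numbers, as happens when reads are divided between similar genes, so the values of Ccr2 are uncertain to that extent.

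CX3CR1, the receptor for fractalkine (CX3CL1), marks patrolling monocytes and terminal effector T cells. Its gene (ENSMUSG00000052336.7, protein coding, minus strand, chr9:119901616-120069879) was at 4.56 and 4.71 CPM with the control guide at 0 h and at 9.43 and 9.09 CPM at 3 h. Cx3cr1 under the Foxp3 guide was at 21.3 and 22.8 CPM at 0 h and at 4.49 and 4.51 CPM at 3 h. The Foxp3-guide libraries were therefore the highest of all at 0 h and the lowest of all at 3 h. Cx3cr1 was 4.76-fold higher with the Foxp3 guide at 0 h (log2 change 2.25 ± 0.08, adjusted p = 4.25e-18) and 2.06-fold lower at 3 h (log2 change -1.04 ± 0.08, adjusted p = 9.34e-11).

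The TCR response of Cx3cr1 had opposite signs under the guides. With the control guide Cx3cr1 rose 1.998-fold (log2 change 0.998 ± 0.09, adjusted p = 1.46e-10), and with the Foxp3 guide it fell 4.90-fold (log2 change -2.29 ± 0.07, adjusted p = 1.18e-19). The difference, -3.29 ± 0.11 (adjusted p = 9.48e-17), was the greatest of the 10 in absolute size. The rise with the control guide was 0.59 as a log2 ratio of mean TPM. An antisense gene, Gm33858, overlaps exons of Cx3cr1, and its levels were 0.427 ± 0.0276 and 1.80 ± 0.0295 CPM with the control guide at 0 h and 3 h, and 1.33 ± 0.0342 and 0.795 ± 0.0585 CPM with the Foxp3 guide. Gm33858 also rose with the control guide and fell with the Foxp3 guide (difference -2.83 ± 0.30, adjusted p = 2.95e-08). Whether reads of Cx3cr1 and Gm33858 were kept apart by strand in the counting was not tested.

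Ccr2 and Cx3cr1 are also genes of monocytes, macrophages and dendritic cells. Of 9 markers of those cells 4 were tested, of which 1 was higher with the Foxp3 guide at 0 h (beside 34.2% of all genes). At 3 h 3 were higher and 1 lower (beside 30.7% and 30.8%). The 9 markers summed to 2.13 to 2.73 TPM with the control guide and 1.98 to 2.38 TPM with the Foxp3 guide at 0 h. At 3 h the sums were 1.86 to 2.19 and 2.71 to 3.37 TPM. Clec9a and Siglech were at 0 TPM in every group, and Itgax was higher with the Foxp3 guide at 3 h (3.39, adjusted p = 3.66e-11). Beside these sums Ccr2 ran from 6.24 ± 0.184 TPM (control guide, 3 h) to 110.6 ± 2.62 TPM (Foxp3 guide, 0 h), and Cx3cr1 from 1.61 ± 0.0212 TPM (Foxp3 guide, 3 h), below the marker sum of that group, to 9.97 ± 0.311 TPM (Foxp3 guide, 0 h). The part of such cells in the values of Ccr2 and Cx3cr1 was not tested. Of 4 NK cell markers 2 were tested. Both were higher with the Foxp3 guide at 0 h (beside 34.2% of all genes tested). At 3 h 1 was lower (beside 30.8%) and none was higher. The list summed to at most 4.24 TPM in any library. The CD8 T cell markers Cd8a and Cd8b1 summed to 6.08 to 9.58 TPM over the 8 libraries.

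Read across the list, the guide effect at 0 h went in both directions. With the Foxp3 guide 4 were higher (Ccr2, Ccr4, Ccr8 and Cx3cr1, where 34.2% of all genes tested were higher) and 4 lower (Ccr6, Ccr9, Cxcr3 and Cxcr5, where 29.1% were lower), while Ccr7 and Cxcr4 were not called. Under median-ratio and upper-quartile scaling, DESeq2, the TPM scales and the fit of only the 4 libraries compared, Ccr7 and Cxcr4 were called too, which made 4 higher and 6 lower. Calls in either direction were made for 8 of the 10, beside 63.3% of the 16642 genes, and the median change was -0.07 for the members and 0.02 for all genes. At 3 h 3 were higher with the Foxp3 guide (Ccr2, Ccr4 and Cxcr3, beside 30.7% of all genes) and the other 7 lower (beside 30.8%). All 10 were called at 3 h, beside 61.5% of all genes, with a median change of -1.34 against -0.01 for all genes. Ccr8, Cxcr3 and Cx3cr1 were called at either time with opposite signs.

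**Figure D3:**
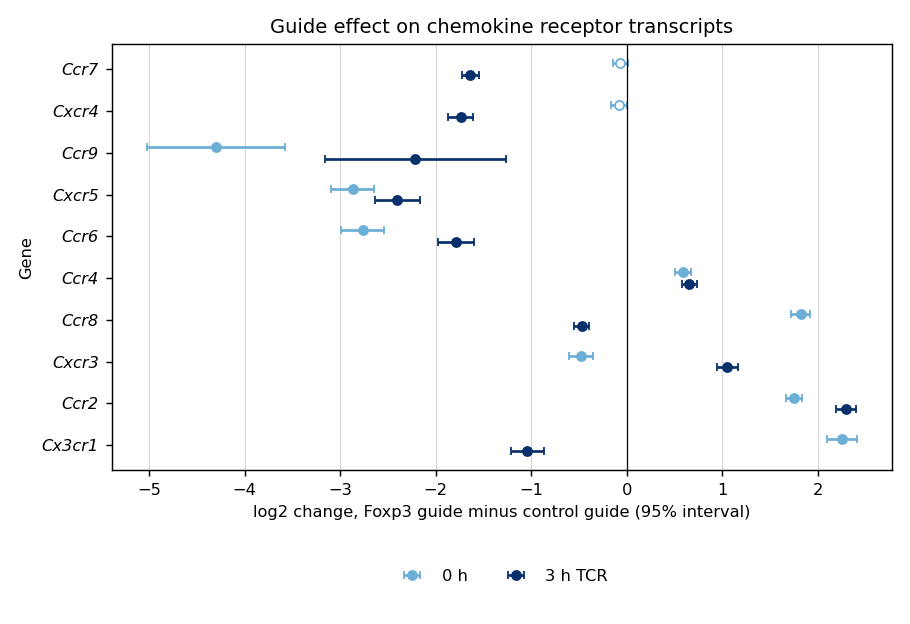
Log2 change of each receptor gene between the guides (Foxp3 guide minus control guide) at 0 h and 3 h, with 95% intervals from the edgeR model and open symbols where the adjusted p was not below 0.05. Ccr7 and Cxcr4 sit at -0.07 and -0.08 at 0 h and at -1.64 and -1.74 at 3 h, and Cx3cr1 passes from 2.25 to -1.04.

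Stimulation moved every receptor in control-guide cells in the count model. There 5 rose (Ccr4, Ccr6, Ccr8, Cxcr3 and Cx3cr1, beside 40.9% of all genes) and 5 fell (Ccr2, Ccr7, Ccr9, Cxcr4 and Cxcr5, beside 40.9%), 10 called in all beside 81.8% of the genes tested. On the TPM scale, where the all-gene median response was -0.20 instead of -0.01, Ccr4, Ccr6 and Cxcr3 were not called. With the Foxp3 guide 4 rose (Ccr4, Ccr6, Ccr8 and Cxcr3, beside 40.8%) and 4 fell (Ccr2, Ccr7, Cxcr4 and Cx3cr1, beside 44.5%), 8 called in all beside 85.4%. The median change was -0.08 under the control guide and 0.04 under the Foxp3 guide, against -0.01 and -0.07 for all genes. In a background with so many changed genes, these counts alone do not set the receptors apart.

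The TCR responses differed between the guides for 9 of the 10 receptors, beside 44.8% of all genes tested. The response was more positive with the Foxp3 guide for 5 (Ccr2, Ccr6, Ccr9, Cxcr3 and Cxcr5, beside 17.8%) and more negative for 4 (Ccr7, Ccr8, Cxcr4 and Cx3cr1, beside 27%). The median difference was 0.27 for the members and -0.09 for all genes. The calls of Ccr9 and Cxcr5 were the ones that alternatives ended, as given above with those genes. Each comparison shares groups with the others, so their values are given side by side without a test of their likeness.

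**Figure D4:**
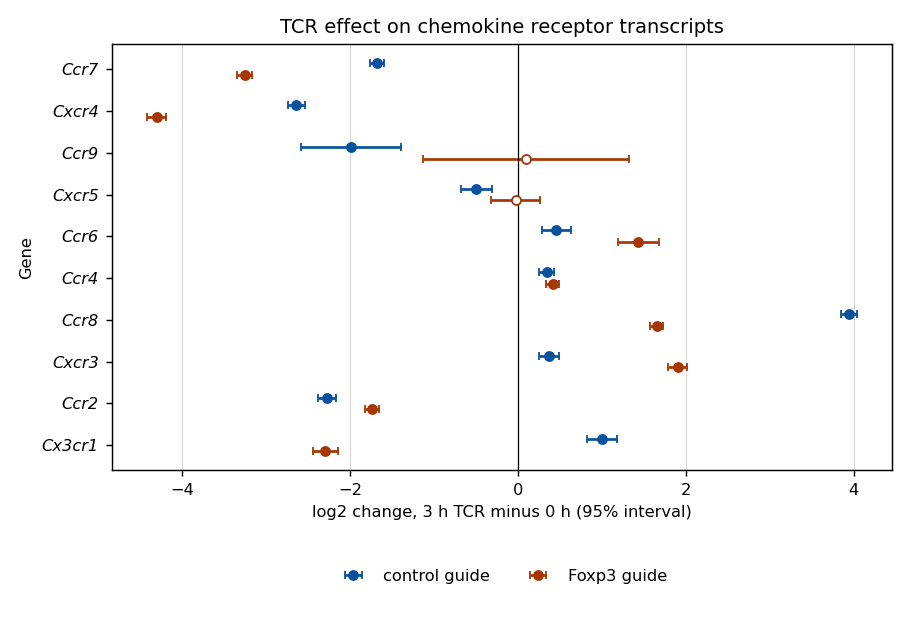
Log2 change of each receptor gene from 0 h to 3 h of TCR stimulation, in blue for the control guide and brown for the Foxp3 guide, with 95% intervals from the edgeR model and open symbols where the adjusted p was not below 0.05. Cx3cr1 lies at 0.998 under the control guide and at -2.29 under the Foxp3 guide, and the interval of Ccr9 with the Foxp3 guide runs from -1.13 to 1.32.

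The promoter windows of some receptors are shown to place these results on the sequence. Ccr8 and Cxcr4 had the largest rise and fall under stimulation with the control guide. Ccr4 and Ccr6 are the pair with a window that held AP-1 or STAT letters. RefSeq windows (GRCm38.p6) of 300 bases, from 250 before to 50 after a gene's start, were at hand for 8 of the 10 genes, with no entry for Ccr7 and Cxcr5, and annotated exon sequence was trimmed from those printed. Each is written 5′ to 3′ on the strand of the gene, for Ccr8 chr9:120091883-120092113, for Cxcr4 chr1:128592300-128592549, for Ccr6 chr17:8235793-8236042 and for Ccr4 chr9:114496563-114496794. Capitals mark matches to TGANTCA (AP-1), TTCNNNGAA (STAT), TGTTTAC (forkhead), GGAAAA (NFAT core) or CCACCC (KLF-type), searched on both strands.
Ccr8: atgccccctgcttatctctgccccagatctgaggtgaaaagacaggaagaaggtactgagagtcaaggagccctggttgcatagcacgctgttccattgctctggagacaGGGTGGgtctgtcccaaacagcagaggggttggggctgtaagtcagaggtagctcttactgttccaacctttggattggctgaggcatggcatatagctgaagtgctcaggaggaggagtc
Cxcr4: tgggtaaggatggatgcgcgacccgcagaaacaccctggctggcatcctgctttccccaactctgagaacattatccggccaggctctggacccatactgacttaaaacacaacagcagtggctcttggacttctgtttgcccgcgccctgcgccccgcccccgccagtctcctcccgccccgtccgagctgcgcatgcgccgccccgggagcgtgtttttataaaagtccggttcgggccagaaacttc
Ccr6: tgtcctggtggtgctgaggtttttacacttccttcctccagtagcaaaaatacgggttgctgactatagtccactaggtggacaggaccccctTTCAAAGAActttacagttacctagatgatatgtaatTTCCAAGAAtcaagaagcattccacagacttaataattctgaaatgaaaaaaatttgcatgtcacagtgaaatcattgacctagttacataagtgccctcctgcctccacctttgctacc
Ccr4: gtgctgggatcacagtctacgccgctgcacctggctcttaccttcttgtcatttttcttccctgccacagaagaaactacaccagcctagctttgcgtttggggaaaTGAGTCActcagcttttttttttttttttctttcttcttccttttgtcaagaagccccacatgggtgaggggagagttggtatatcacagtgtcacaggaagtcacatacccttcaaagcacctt

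The Ccr4 window held an AP-1 match at position -143 from the RefSeq start, a motif with a match in 7.81% of the 32851 windows of the same length. That window lies inside the gene span given above for Ccr4, not upstream of its annotated 5′ end. The windows of Ccr9 and Cx3cr1 likewise lie inside their gene spans. Of the 2 windows of Ccr6, the upstream one held STAT matches at positions -157 and -120, where 8.30% of windows hold at least 1 such match. The other, inside the gene span of Ccr6 and not printed, held none of the 5 motifs. The Ccr8 window held the KLF-type letters on the opposite strand at position -140, as 31.5% of windows do. None of the 5 motifs was found in the Cxcr4 window, which had 20 CG dinucleotides against a median of 7 over all windows and 2 in that of Ccr8. KLF-type letters were also in the windows of Ccr9 (position -74) and Cx3cr1 (position -221). NFAT core letters, which 23.4% of all windows hold, were in the window of Ccr2 at positions -191 and 37. Forkhead letters, which 3.65% of windows hold, were not found in the windows of these 8 genes. A match is a description of the letters and says nothing about binding.

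The genes of 6 members lie on chromosome 9, and the guide effects of neighbours there ran in the same direction in some cases and in opposite directions in others. Along the plus-strand direction from Ccr9, at 0 h Ccr9 was lower with the Foxp3 guide (-4.30 ± 0.35) and the next receptor gene, Cxcr6, the receptor for CXCL16, was higher (log2 change 2.31, adjusted p = 1.06e-20). Ccr1, further along, was lower on few counts (-2.19, adjusted p = 0.00191), Ccr3 was at -0.06 (adjusted p = 0.775) and Ccr2 was higher (1.75 ± 0.04). Cx3cr1 and Ccr8, which stand 22235 bases apart with Gm33858 reaching into the space between them, were both higher with the Foxp3 guide at 0 h and both lower at 3 h.

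Other chemoattractant receptors were measured beside the members, 8 of 17 listed passing the filter. At 0 h 4 were higher and 3 lower with the Foxp3 guide (beside 34.2% and 29.1% of all genes), and at 3 h 5 were higher and 3 lower (beside 30.7% and 30.8%). Their median changes were 0.03 and 0.97, against 0.02 and -0.01 for all genes. Cxcr6 kept a guide effect of similar size at 3 h (2.18, adjusted p = 1.04e-19), and the difference between its TCR responses was -0.13 (adjusted p = 0.226). Gpr183, the oxysterol receptor EBI2 that guides cells within lymphoid tissue, rose with stimulation by 5.27 on the log2 scale under the control guide and by 3.45 under the Foxp3 guide. S1pr1, the receptor that lets T cells leave lymph nodes, fell (log2 change -4.33 under the control guide and -6.61 under the Foxp3 guide).

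Ligands of the receptors were also transcribed in the stimulated cultures. Of 17 ligand genes 10 were tested, and Ccl19 and Ccl21a, each listed in 2 rows, were not used. Between the guides 2 were higher and 1 lower at 0 h (beside 34.2% and 29.1% of all genes). At 3 h 7 were higher and 3 lower with the Foxp3 guide (beside 30.7% and 30.8%), and the median change was 2.53 against -0.01 for all genes. With stimulation 7 rose and 1 fell under the control guide (beside 40.9% and 40.9%), and 9 rose and 1 fell under the Foxp3 guide (beside 40.8% and 44.5%). The median responses, with groups at 0 counts set to a floor of 3 counts over the group, were 4.53 over 8 genes and 5.01 over 10, against -0.01 and -0.07 for all genes.

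Ccl1, the ligand of CCR8, had 0 counts in both control-guide libraries at 0 h and reached 252.5 and 270.3 CPM at 3 h, at least 8173-fold higher when 0 is set to the floor of 3 counts over the group. In the Foxp3-guide libraries Ccl1 was at 0 and 0.233 CPM at 0 h and at 2222 and 2320 CPM at 3 h. The stimulated Foxp3-guide libraries thus had more Ccl1 and less Ccr8 than the stimulated control-guide libraries (guide effect on Ccl1 3.12, adjusted p = 0.000181). Ccl20, the ligand of CCR6, was at 25.0 ± 0.823 CPM with the control guide and 109.4 ± 4.76 CPM with the Foxp3 guide at 3 h (2.13, adjusted p = 6.51e-21), the opposite direction to Ccr6. Ligands of CCR2 and CCR4 went in the direction of their receptor genes at 3 h. Ccl2 (4.97, adjusted p = 1.27e-05) and Ccl7 (4.71, adjusted p = 4.4e-06) were higher with the Foxp3 guide, as Ccr2 was, on few control-guide counts. Ccl17 went from 0.160 CPM with the control guide to 1.21 CPM with the Foxp3 guide. Ccl22 went from 1.02 to 3.70 CPM, and Ccr4 was also higher.

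For CXCR3 the ligands divided. Cxcl9 was at 0.607 CPM with the control guide and 7.26 CPM with the Foxp3 guide at 3 h (3.58, adjusted p = 4.42e-15), while Cxcl10 was at 21.0 and 9.37 CPM (-1.16, adjusted p = 2.49e-12). Cx3cl1, the ligand of CX3CR1, was lower with the Foxp3 guide at 0 h (-3.82, adjusted p = 1.34e-10) and at 3 h (-1.15, adjusted p = 2.16e-05). Cx3cr1 went in the opposite direction at 0 h and in the same direction at 3 h. Ccl25, the ligand of CCR9, fell with stimulation (log2 change -0.28 under the control guide and -0.53 under the Foxp3 guide). At 3 h Ccl25 was lower with the Foxp3 guide (-0.39, adjusted p = 8.78e-05), as Ccr9 was.

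**Figure D5:**
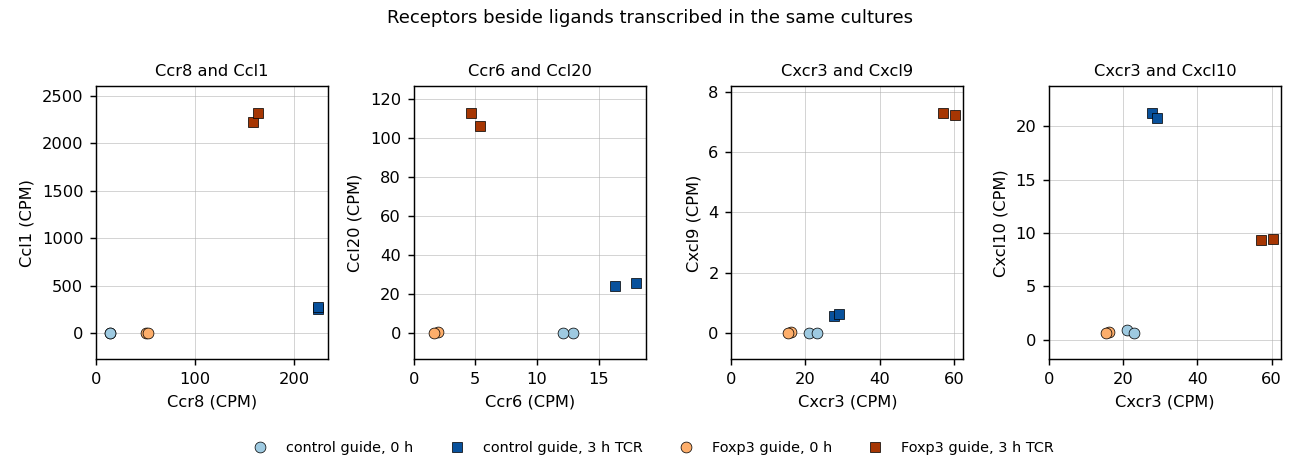
CPM of a receptor gene (horizontal axis) against CPM of a ligand gene (vertical axis) in each of the 8 libraries, for Ccr8 with Ccl1, Ccr6 with Ccl20, and Cxcr3 with Cxcl9 and Cxcl10, with circles for 0 h and squares for 3 h. The stimulated Foxp3-guide libraries have 2222 and 2320 CPM of Ccl1 and less Ccr8 than the stimulated control-guide libraries.

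Among genes that transmit or end receptor signals, 27 of 28 listed were tested. With the control guide 17 fell and 8 rose (beside 40.9% and 40.9% of all genes), and with the Foxp3 guide 17 fell and 9 rose (beside 44.5% and 40.8%). The median changes were -1.01 and -1.20, against -0.01 and -0.07 for all genes. Rgs16, which speeds the turn-off of inhibitory G proteins, rose by 6.52 under the control guide and by 8.60 under the Foxp3 guide. Arrb1 (beta-arrestin 1) fell, with log2 changes of -2.80 and -3.40, and so did Rgs14, with -3.81 and -4.78. Between the guides, 14 were higher and 7 lower with the Foxp3 guide at 0 h (beside 34.2% and 29.1% of all genes), with a median of 0.12 against 0.02 for all genes. Pik3cg, the PI3-kinase gamma subunit that chemokine receptors engage, was the highest among them (1.74, adjusted p = 3.16e-10), and Rgs16 the lowest (-2.08, adjusted p = 2.51e-17). At 3 h 11 were higher and 9 lower (beside 30.7% and 30.8%), with a median of 0.03 against -0.01.

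Transcription factors of homing programmes changed in all 23 cases with stimulation under either guide, 13 rising and 10 falling under each, beside 81.8% of all genes called under the control guide and 85.4% under the Foxp3 guide. The median changes were 0.82 and 0.94, against -0.01 and -0.07 for all genes. Klf2, which maintains lymph node homing and egress genes, went from 260.5 to 20.1 CPM with the control guide and from 201.4 to 2.701 CPM with the Foxp3 guide. Tbx21, which encodes T-bet, went from 1.11 to 337.5 CPM and from 4.02 to 238.4 CPM. At 3 h Tbx21 was thus lower with the Foxp3 guide (-0.50, adjusted p = 1.58e-11) while Cxcr3 was higher. Between the guides 6 factors were higher and 11 lower at 0 h (beside 34.2% and 29.1% of all genes), led by Tcf7 (TCF-1, 2.39, adjusted p = 1.45e-23) and Prdm1 (Blimp-1, -0.77, adjusted p = 2.56e-09), and 8 were higher and 11 lower at 3 h (beside 30.7% and 30.8%). Bcl6, the factor of follicular T cells, was higher with the Foxp3 guide at 3 h (1.24, adjusted p = 3.71e-18) while Cxcr5 was lower. Whether these factors act on Cxcr3 or Cxcr5 in these cells was not tested.

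For each receptor the 3 genes with the most similar profile over the 8 libraries were found among 8727 well-expressed genes, by the root mean square difference of centred log2 CPM. Profiles most like that of Ccr2 were those of the replication and repair genes Gmnn, Polq and Fanca, at a difference of 0.11 to 0.12. Ccr4 was nearest to Coro1c, Ftsj1 and Rpl4 (0.05 to 0.07), Ccr6 to Dgat2, Gbp5 and Gpr83 (0.13 to 0.30), and Ccr7 to Ttyh3, Abcg2 and Ifi206 (0.07 to 0.14). Cxcr4 was nearest to Tbc1d10c, Zer1 and Appl2 (0.09 to 0.12), and Cxcr3 to Lrch1, Atp11a and Pdp2 (0.14 to 0.15). Cxcr5 was nearest to Whrn, Cd86 and Foxp3 (0.25 to 0.31), and Ccr9 to Whrn, Stxbp6 and Foxp3, though at a distance of 0.60 to 0.67. Ccr8 was nearest to Slc9a5, Il18rap and Slfn2 (0.30 to 0.36), and Cx3cr1 to Gas2l3, Cep72 and Ezh2 (0.37 to 0.53). No cutoff for a close match was set.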

How the data were processed

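The data were 8 stranded RNA-seq libraries of cultured Treg cells. Per the submitters' processing notes the tools were Trim Galore 0.6.3, STAR 2.7.9a and RSEM 1.3.1 on mm10 (GRCm38); the annotation release is not given in the sources used here. The authors deposited an expected count per gene and library, and these were rounded before fitting count models. The deposited TPM values served for levels between genes and as an alternative scale.

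Counts were filtered with filterByExpr, scaled by TMM and fitted with the quasi-likelihood model of edgeR 4.0.16 (R 4.3.3, robust, 1 mean for each of 4 groups, all 8 libraries). Benjamini-Hochberg adjustment ran over all 16642 genes tested, with calls below 0.05. SEs were derived from the F statistics. The fit was tested on simulated data in which few genes changed, with signs drawn at random, so that test cannot judge the scaling. Gene positions came from GENCODE M21, with 55094 of 55665 identifiers matched by version.

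All 10 members were named, with up to 3 rises and 3 falls of each list per comparison and the 3 nearest profiles. Members and lists were chosen with earlier results of these data known, and the overlapping genes Bcl9l, Gm33858, Slc6a20a and Gm17200 were added after their values were seen. Chromosome 9 neighbours came from the receptor list. Alternatives were other scalings, DESeq2 1.42.0, limma 3.58.1 on log2(TPM + 1 or 0.1), filters, sample sets, a replicate term, leaving out each library and, chosen after seeing the data, thinning. Zero-count floors cover counting error only. Some neighbouring and marker genes are not reported here.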

Additional observations from a re-analysis of the deposited data

Results flagged for a closer look

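For 9 receptors the TCR response differed between the guides by the test of the difference itself (edgeR quasi-likelihood interaction, Benjamini-Hochberg adjusted), given here as the response with the Foxp3 guide minus that with the control guide on the log2 scale. The difference was 0.54 for Ccr2, 0.97 for Ccr6, -1.57 for Ccr7, -2.29 for Ccr8, 2.09 for Ccr9, 1.53 for Cxcr3, -1.66 for Cxcr4, 0.47 for Cxcr5 and -3.29 for Cx3cr1. For Cx3cr1 the 3 h libraries all lay above the 0 h libraries with the control guide and below them with the Foxp3 guide. The members with the least counts, Ccr9 and Cxcr5, passed the threshold with adjusted p = 0.0156 and 0.0248. Such a difference was called for 44.8% of all genes tested.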

How the results depend on the processing

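Over 10 receptors, 5 comparisons and up to 18 alternatives, 841 values kept direction and call, 14 gained a call, 23 lost one and 11 changed sign. Gained calls were Ccr7 and Cxcr4 at 0 h. Sign changes concerned Ccr4 with stimulation under the control guide on the TPM scales (-0.0266 in log2(TPM+1) with and without the filter, -0.0272 in log2(TPM+0.1)), and the uncalled responses with the Foxp3 guide of Cxcr5 (0.0222 with median-ratio scaling, 0.0197 with DESeq2, 0.0065 with only the 4 libraries compared, -0.0825 to 0.0223 leaving out a library) and Ccr9 (-0.0727 with upper-quartile scaling, -0.181 to 0.429 leaving out a library). The cause was not tested. In log2(TPM+1) with limma 5910 genes differed in TCR response with the same genes tested and 4843 without the filter (27609 tested), instead of 7457 in the count model. With only the 4 libraries of the Foxp3 guide, Ccr9 did not pass the filter. Leaving out 1 library at a time gave 8 to 8, 10 to 10, 10 to 10, 8 to 8 and 7 to 9 receptors called in the 5 comparisons, in the report's order, and 9418 to 10824, 8882 to 10291, 13051 to 13677, 13532 to 14544 and 6541 to 7323 genes. Thinning all libraries to the smallest total left 8, 10, 10, 8 and 8, losing Cxcr5 in the difference (adjusted p = 0.0707). Replicate numbers are shared between groups only as numbers. Deviations of same-numbered libraries correlated from -0.24 to 0.22, and with a replicate block 8, 10, 10, 8 and 9 receptors and 10319, 10034, 13527, 14111 and 7240 genes were called, with no receptor's call changed. The share of called genes that were higher was 54.0% at 0 h and 49.9% at 3 h between the guides but 27.9% and 27.4% in log2(TPM+1), where the all-gene medians were -0.15 and -0.12; for stimulation with the control guide it was 49.99% against 37.3%. For the difference it was 39.7% against 48.7% with median-ratio scaling and 51.5% in TPM. Upper-quartile scaling put the all-gene response to stimulation at -0.25 and -0.24. Ccr9 rests on 13 summed counts in each Foxp3-guide group.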
